A study of Mus with 12 samples.

Results

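The comparison of RARα-KO with WT CD8 T cells cultured without retinoic acid (RA) was chosen by its labels, as 2 RARα-KO libraries against 2 WT libraries among the 12 libraries of the series, and was read across all genes of the deposited table. RARα-KO cells came from mice in which Cre, driven by the distal Lck promoter and so active in T cells, removes a floxed exon of Rara, the gene of the RA receptor RARα. Cre was listed at 0 FPKM in the WT libraries, and the labels give C57BL/6 as the background of all mice. In both groups, naive CD8 T cells isolated from spleen with magnetic beads were activated for 20 h on coated anti-CD3 (1 µg/ml) with IL-2 at 100 U/ml and anti-CD28 at 2 µg/ml in the medium. The serum, at 10%, was charcoal-stripped to remove retinoids. Matched RARα-KO + RA and WT + RA cultures received 15 nM RA, with 2 libraries each, and serve as a separate comparison of the same genotypes. The series also holds BATF-KO libraries, which entered the fit only to estimate the spread. The study used age-matched young adult mice for most of its experiments. Whether libraries of a group came from separate mice or from pooled animals, and the age of the mice behind each library, are not given in the sources used here, so the p-values measure only the spread between these libraries.

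RARα is a nuclear receptor that pairs with RXR receptors on DNA. With RA bound it recruits coactivators, and without RA it can hold target genes silent through corepressors, so that its loss in retinoid-poor medium can in principle release genes as well as switch them off. An activated CD8 T cell leaves the naive program, induces AP-1, NFAT and NF-κB targets through its receptor, starts to grow and divide, and acquires cytotoxic granules, cytokines and effector factors such as T-bet. The question addressed here is which of these programs differed when RARα was deleted and no RA was added.

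Of 55487 genes in the table, 13396 reached 1 FPKM in at least 2 of the 12 libraries and were tested. FPKM count sequenced fragments per unit of transcript length, relative to all mapped fragments of the library. A log2 fold change here is the difference of mean log2(FPKM + 1), given ± its standard error, and is smaller than the ratio of FPKM for genes near 1 FPKM. A gene was called at a Benjamini-Hochberg adjusted p under 0.05 in limma. In RARα-KO against WT without RA 441 genes were called, 372 up and 69 down. The number was 80 with only the 4 libraries compared in the fit, 232 without receptor segments and genes of other cell types, 247 without WT replicate 2 and 259 without RARα-KO replicate 2. Between 12085 and 12446 genes reached 1 FPKM in the 4 libraries compared. Read totals were not given. The steps between low FPKM values put the depth of these libraries between 0.94 and 1.31 times that of WT replicate 1.

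The 2 RARα-KO libraries were not alike. Cre was at 824 and 79.3 FPKM in RARα-KO replicates 1 and 2, and at 0 in both WT libraries. The same gap appeared in the RARα-KO + RA cultures, where Cre was at 681 and 86.7 FPKM. Replicate 1 thus exceeded replicate 2 by 10.4-fold without RA and by 7.86-fold with RA, and Cre was at or below 0.13 FPKM in every library without the transgene. Rara itself (ENSMUSG00000037992, chromosome 11, 98927800 to 98974942, GRCm38) was at 17.9 and 15.3 FPKM in RARα-KO and at 14.6 and 14.0 FPKM in WT (log2 fold change 0.19 ± 0.15, adjusted p = 0.86). A deleted allele can still give a transcript that gene-level values include, so the deletion could not be checked from it, and Cre is the only entry that follows the genotype label by design. Effects of Cre, or of anything else particular to the RARα-KO line, cannot be told apart from the loss of RARα in this design.

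**Figure D1:**
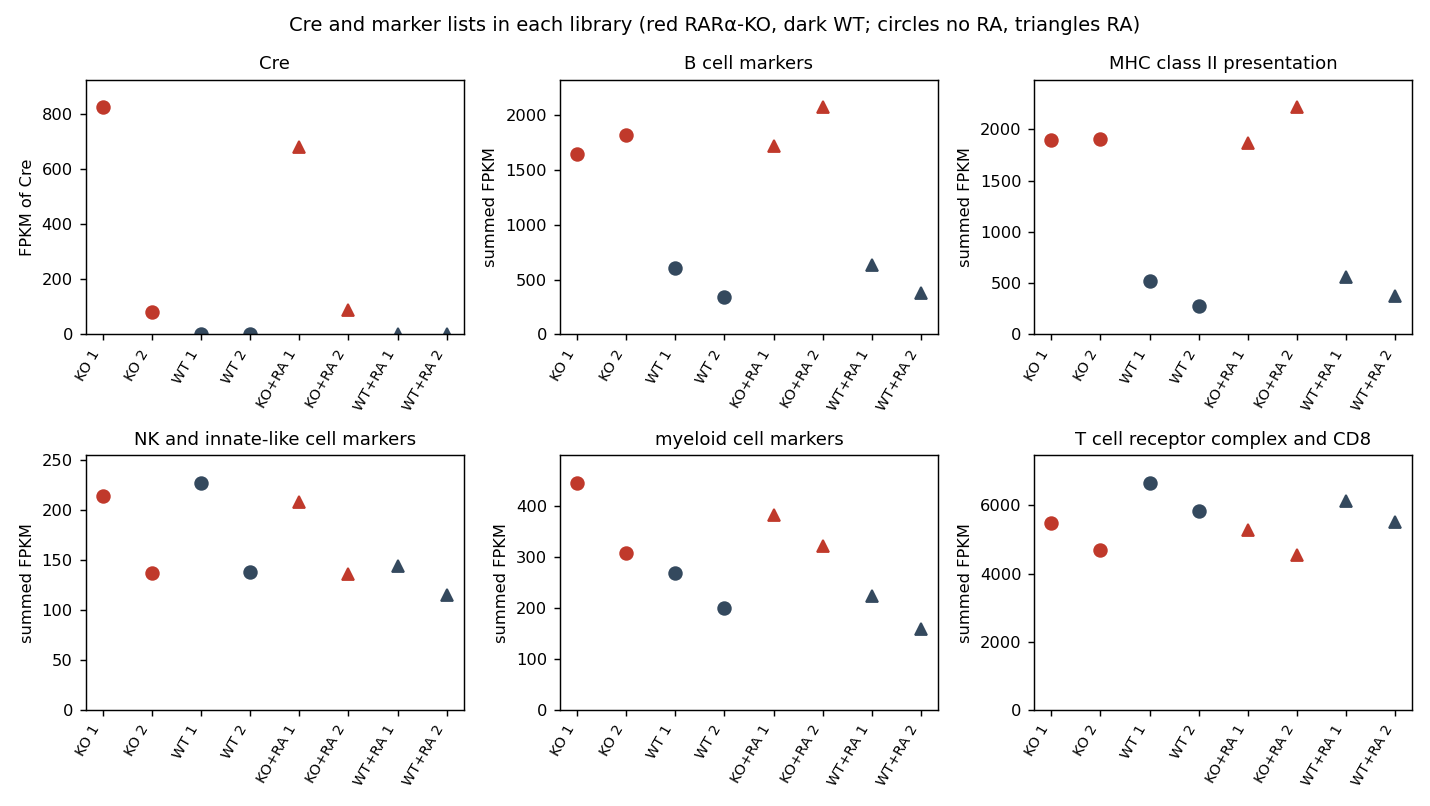
Cre (FPKM) and the summed FPKM of 5 gene lists in each RARα-KO and WT library, without RA (circles) and with RA (triangles), all on axes that start at 0. Cre was at 824 FPKM in RARα-KO replicate 1 and 79.3 FPKM in replicate 2, and the B cell sums of all RARα-KO libraries lay above those of all WT libraries, whereas the NK sums overlapped.

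Genes of plasma cells, MHC class II presentation and B cells had the largest list medians in RARα-KO against WT. B cell markers summed to 1642 and 1823 FPKM in RARα-KO and to 610.3 and 340.9 FPKM in WT. All 22 tested markers had libraries that did not overlap and were higher in RARα-KO, 19 were called, and the median log2 fold change was 2.31, against -0.00 over all genes tested. Of all genes tested, 2.78% were called up and 0.515% down, and 15.0% had RARα-KO libraries wholly above WT. Ebf1, a factor of the B lineage, was at 4.62 and 4.07 FPKM against 0.74 and 0.38 FPKM in WT (1.78 ± 0.22, adjusted p = 0.0023). Of the 39 called genes of all other-cell lists, 20 kept their calls without each of the 4 libraries, among them Ebf1, Pax5, H2-Eb1 and Ncr1. A bulk value does not separate more B cells from more RNA per B cell.

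Antigen presentation and plasma cell genes moved with the B cell markers. All 10 MHC class II genes were higher and 8 were called, with H2-Eb1, a class II beta chain, at 226 and 242 FPKM in RARα-KO against 44.6 and 19.6 FPKM in WT. Of 5 plasma cell genes, 4 rose, led by Igha, the IgA heavy chain. Among receptor segments, 102 of 180 tested immunoglobulin segments rose and 0 fell, whereas 1 of 104 T cell receptor alpha segments was called. All 13 tested segments of the gamma and delta chains, which gamma delta T cells use, were higher, with 2 called and a median of 1.29. Trdc, the delta constant region, was at 7.48 and 3.28 FPKM in RARα-KO against 1.26 and 1.36 FPKM in WT without a call. Segments and the listed genes of other cells together made up 147 of the 372 genes that rose, or 39.5%.

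NK, myeloid and dendritic cell signals were smaller. The NK list had 12 of 15 tested members higher and 4 called (Ncr1, Klrb1c, Klra9 and Fcer1g), with a median of 1.26. Ncr1, the NK receptor NKp46, was at 6.26 and 6.05 FPKM in RARα-KO against 0.78 and 0.38 FPKM in WT. The summed NK list nevertheless overlapped, at 214 and 137 FPKM in RARα-KO and 227 and 138 FPKM in WT. Its most abundant member, Klrd1 (CD94), which CD8 T cells also express, was at 87.5 and 38.6 FPKM in RARα-KO against 172 and 104 FPKM in WT. Of 15 myeloid genes, 14 were higher and 4 were called, with sums of 445 and 308 FPKM in RARα-KO against 267 and 199.8 FPKM in WT. The called genes were the neutrophil genes S100a8, S100a9 and Ngp and the macrophage gene Adgre1. Adgre1 was at 2.67 and 4.34 FPKM in RARα-KO against 0.45 and 0.33 FPKM in WT. C1qa, C1qb, C1qc and Ly6g, which mark macrophages and neutrophils, stayed at or below 0.61 FPKM in all 4 libraries, and the dendritic cell genes Clec9a and Xcr1 at or below 0.26 FPKM. Other members of these lists that were too low to test went both ways. Flt3 was at 1.42 and 0.59 FPKM in RARα-KO against 0.44 and 0.19 FPKM in WT. Siglech was at 0.82 and 0.28 FPKM against 0.16 and 0.1 FPKM, and Csf3r at 0.44 and 0.58 FPKM against 0.2 and 0.17 FPKM. Itgax was at 0.34 and 0.14 FPKM against 0.49 and 0.25 FPKM. Only 2 dendritic cell genes were tested, of which Cd83, which activated lymphocytes also express, was called. Zbtb46 was at 2.13 and 1.29 FPKM in RARα-KO against 0.68 and 0.48 FPKM in WT, without overlap and without a call. The list of CD4 and regulatory T cell genes was mixed, with 3 of 7 members higher, 1 called and a median of -0.11. Cd4 was at 2.83 and 1.96 FPKM in RARα-KO and 3.46 and 4.26 FPKM in WT, whereas Zbtb7b, a factor of CD4 T cells, was called at 4.36 and 5.16 FPKM in RARα-KO against 2.64 and 2.45 FPKM in WT (0.70 ± 0.16, adjusted p = 0.045), a call lost without any 1 of the 4 libraries (0.093 to 0.31). Of 13 genes of memory-phenotype CD8 T cells, 12 were higher, 1 was called and the median was 0.32. That gene was S100a4, a calcium-binding protein, at 17.8 and 8.04 FPKM in RARα-KO against 2.14 and 2.67 FPKM in WT (1.94 ± 0.38, adjusted p = 0.021), and its call ended without RARα-KO replicate 1 (adjusted p = 0.11) or either WT library (0.089 to 0.14).

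The WT libraries themselves offered a way to look at the called genes. B cell markers were higher in WT replicate 1 than in WT replicate 2, by a median ratio of 2.25, and the same held in the WT + RA pair. A ratio of at least 1.5 in both pairs, a limit chosen after the values were seen, was met by 13 of 20 B cell markers with a usable ratio in both pairs and 1 FPKM or more in a WT library (65.0%), by 33 of 117 called genes in no list (28.2%), and by 3.71% of all such genes. Of the 14 genes of the T cell lists that rose, only 8 could be placed in this way. Gzma was the 1 gene of these 8 that met the limit. Conversely, 27 of the 117 were no higher in WT replicate 1 in either pair, as were 4425 of all 12467 such genes. The 27 are therefore no special set. They include Slfn9, Cep85, Casp4, Ly6a, Ptprj, Coro2a, Klf10, Fmnl3, Myo1e and Plek. This is a description with no test.

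**Figure D2:**
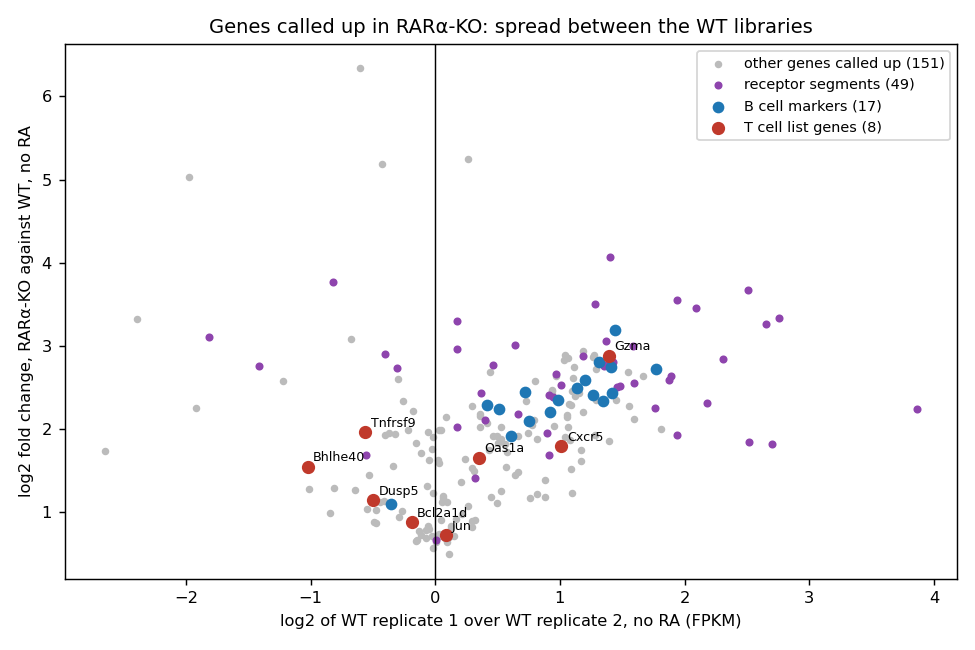
Each point is a gene that rose in RARα-KO and had a usable WT ratio, placed by the log2 ratio of WT replicate 1 over WT replicate 2 (x) and by its log2 fold change in RARα-KO against WT (y). B cell markers lie mostly to the right, while Tnfrsf9, Bhlhe40 and Dusp5 lie to the left of 0 and Gzma among the B cell markers.

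In the T cell lists, which were kept apart from those markers, few genes passed the test. Other cells can also express some of these genes, and their part in the values was not tested. Over the 24 T cell lists, 390 genes were tested, of which 14 rose and 4 fell, or 4.62% called, against 3.29% of all genes. For the list counts below, 6594 of all 13396 genes tested had a higher mean in RARα-KO. Replicate 2 exceeded replicate 1 in 45.8% of all genes in RARα-KO and in 50.4% in WT. Jun, Maf, Dusp5, Tnfrsf9, Bhlhe40, Gzma, Cxcl16, Entpd1, Oas1a, Cxcr5, Bcl2a1a, Bcl2a1d, Asb2 and P2rx7 rose, and Dapl1, Nsg2, Nt5e and Trbc1 fell. Only Tnfrsf9, Bcl2a1a, Dapl1 and Nt5e kept their calls without each of the 4 libraries in turn. With only these 4 libraries in the fit, none of the 18 was called, with adjusted p from 0.066 for Bcl2a1a to 0.45 for Bcl2a1d.

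Tnfrsf9 (chromosome 4, 150920155 to 150946104) encodes 4-1BB, a costimulatory receptor of activated CD8 T cells. It was at 137 and 222 FPKM in RARα-KO and at 36.2 and 53.5 FPKM in WT. The groups did not overlap, and even the lower RARα-KO library stood 2.56 times above the higher WT library (log2 fold change 1.96 ± 0.25, adjusted p = 0.0025). It was the only called member of the costimulatory list, in which 4 of 13 genes, Tnfrsf9 included, had a higher mean and the median was -0.26. Tnfrsf1b (TNFR2) was at 40.8 and 35.3 FPKM in RARα-KO against 22.8 and 32.8 FPKM in WT, without overlap and without a call. Cd28 was at 40.3 and 50.6 FPKM in RARα-KO against 43.2 and 85.1 FPKM in WT, Icos at 26.6 and 43.2 FPKM against 31.5 and 52.7 FPKM, and Tnfrsf4 (OX40) at 33.3 and 49.4 FPKM against 43.3 and 63.9 FPKM, and none of them was called.

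The AP-1 family was higher in most members. They pair as Jun, Fos, Maf and BATF proteins on shared DNA sites. Jun was at 45.7 and 47.2 FPKM in RARα-KO and at 28.7 and 27.0 FPKM in WT, far apart beside the small spread within each genotype (0.72 ± 0.11, adjusted p = 0.0055). Of 16 tested family members, 12 had RARα-KO libraries wholly above WT (15.0% of all genes did), 2 were called (Jun and Maf), and the median was 0.52. Maf was low, at 1.45 and 1.54 FPKM against 0.44 and 0.46 FPKM in WT. Junb was at 142 and 171 FPKM against 105 and 106 FPKM (0.56 ± 0.17, adjusted p = 0.17), while Jund, at 242 and 307 FPKM against 239 and 307 FPKM in WT, and Bach2, at 32.8 and 32.0 FPKM against 29.4 and 30.2 FPKM, were nearly level. Both RARα-KO libraries shared the family's shift, with medians of 0.41 in replicate 1 and 0.60 in replicate 2 relative to the WT mean. The call of Jun ended without WT replicate 2 (adjusted p = 0.052), and that of Maf without any 1 of the 4 libraries (0.14 to 0.21).

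Genes that respond quickly to the T cell receptor were also higher in the mean for 22 of 23 members, with a median of 0.40, and 1 was called. Dusp5, a phosphatase that shuts off ERK, was at 16.5 and 23.7 FPKM in RARα-KO and at 7.05 and 9.97 FPKM in WT (1.14 ± 0.20, adjusted p = 0.013). Cd69, an early activation marker, was at 85.6 and 118 FPKM against 53.4 and 68.9 FPKM (0.72 ± 0.20, adjusted p = 0.12). In 12 of 23 genes the RARα-KO libraries lay wholly above WT, as in 15.0% of all genes. Dusp5 lost its call without RARα-KO replicate 2 (adjusted p = 0.092) or WT replicate 1 (adjusted p = 0.10).

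Ifng, Tbx21 and Gzmb, chosen after their values were seen, differed between the 2 RARα-KO libraries. Ifng, encoding interferon-γ, was at 50.7 and 332 FPKM in RARα-KO and at 36.2 and 51.4 FPKM in WT, so replicate 1 lay at the top of the WT range and replicate 2 far above it. Tbx21, encoding T-bet, was at 16.7 and 47.3 FPKM against 5.60 and 14.0 FPKM in WT. Gzmb, the granzyme B gene, was at 222 and 859 FPKM against 147 and 420 FPKM. For all 3 genes the WT libraries differed the same way, with replicate 2 higher. None of the 3 genes was called (adjusted p = 0.52 for Ifng, 0.29 for Tbx21 and 0.895 for Gzmb). Their lists were not split as a whole, since RARα-KO replicate 2 exceeded replicate 1 in 6 of 12 cytotoxic genes and in 8 of 15 effector transcription factors.

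The opposite split appeared for other genes. Gzmk, a granzyme of early memory cells, was at 10.0 and 0.51 FPKM in RARα-KO and at 0.33 and 0 FPKM in WT. Itgae (CD103) was at 73.7 and 23.9 FPKM in RARα-KO against 75.8 and 57.3 FPKM in WT. Both genes kept this split in the RARα-KO + RA cultures, with Gzmk at 7.38 and 0.83 FPKM and Itgae at 61.4 and 23.2 FPKM. Outside receptor segments, 280 genes were at least 2-fold higher in RARα-KO replicate 2 than in replicate 1 on the FPKM + 1 scale, and 241 at least 2-fold lower. Of the 280, 44 belonged to T cell lists, which held 390 of the 13396 genes tested. Of the same 280, 107 differed by at least 2-fold the same way with RA, and 69 did so between the WT libraries. Of the 241, 11 belonged to T cell lists, 71 differed the same way with RA and 47 between the WT libraries. Over all genes tested, receptor segments included, replicate 2 was at least 2-fold higher for 249 genes in RARα-KO + RA and 243 in WT. Replicate 1 was at least 2-fold higher for 204 and 214. The B cell sums of the 2 RARα-KO libraries differed far less, at 1642 and 1823 FPKM, and the NK sum was the higher one in replicate 1, at 214 against 137 FPKM in replicate 2.

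Across the cytotoxic list, Gzma alone was called. Gzma was at 82.1 and 41.0 FPKM in RARα-KO and at 11.2 and 4.26 FPKM in WT (2.88 ± 0.51, adjusted p = 0.013). In both genotypes its higher library was replicate 1, as for the NK list, and its call ended without RARα-KO replicate 1 (adjusted p = 0.086) or WT replicate 2 (adjusted p = 0.098). Prf1 (perforin), at 12.04 and 25.0 FPKM against 12.5 and 15.8 FPKM in WT, overlapped. Of 15 cytokine genes 13 had a higher mean and 0 were called, and RARα-KO replicate 2 exceeded replicate 1 in 13 of them. Lif, a cytokine of the IL-6 family, was at 3.87 and 20.9 FPKM in RARα-KO and at 1.09 and 2.15 FPKM in WT (2.01 ± 0.68, adjusted p = 0.25). Tnfsf11 (RANKL) ran the other way without a call, at 4.02 and 5.76 FPKM against 12.2 and 9.35 FPKM in WT.

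**Figure D3:**
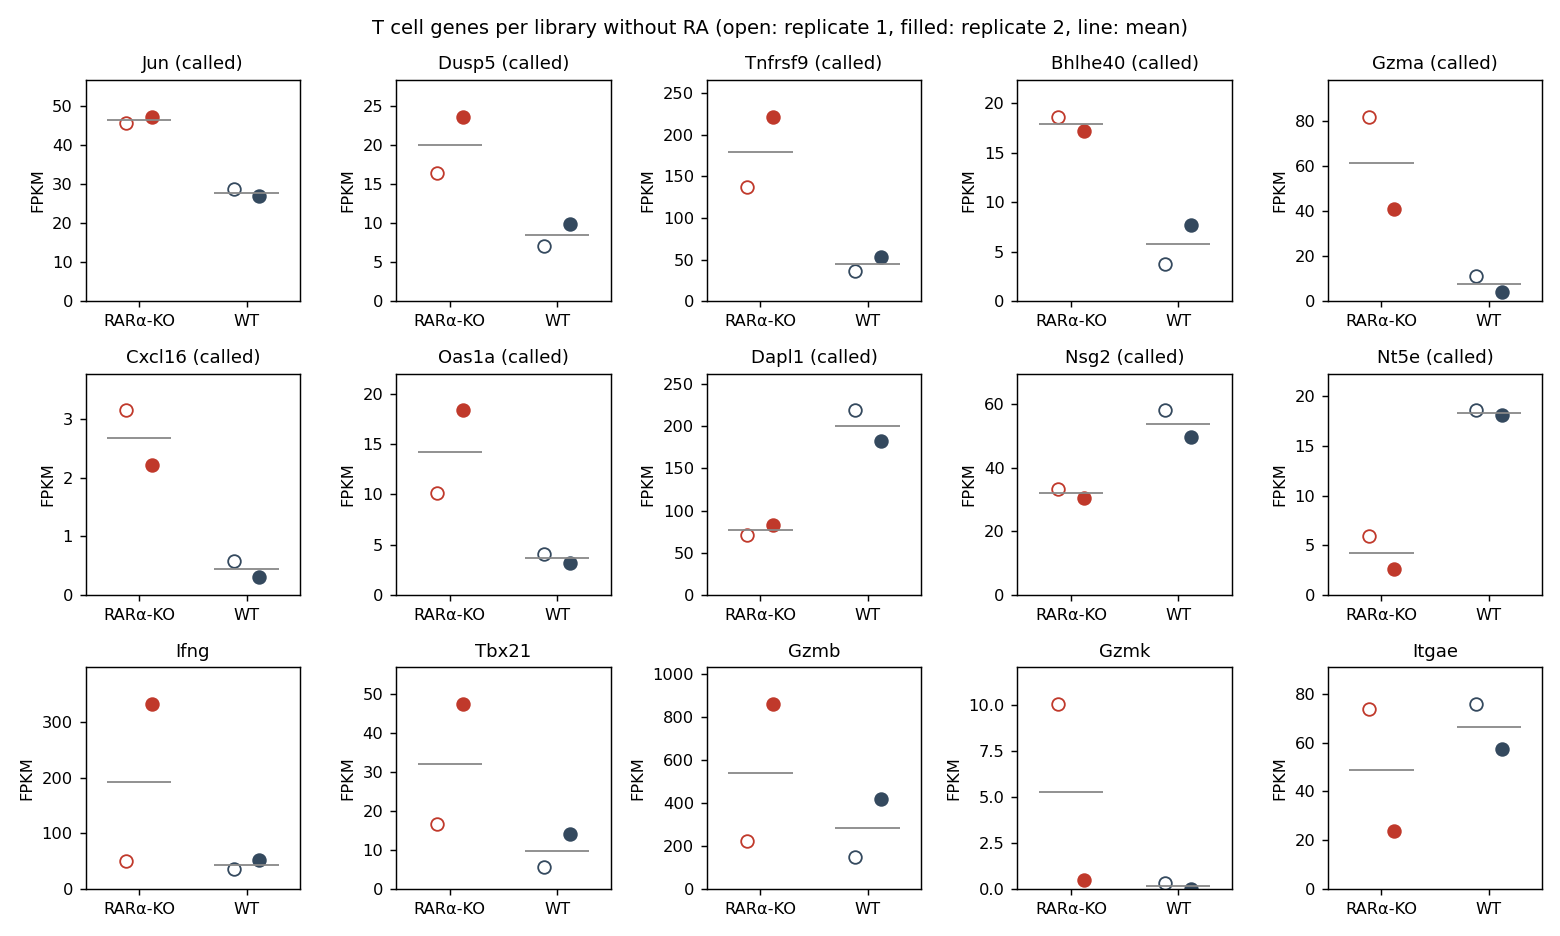
FPKM of 15 T cell genes in RARα-KO (red) and WT (dark) without RA, with replicate 1 open, replicate 2 filled and the mean as a line, on axes that start at 0. The upper 10 genes were called and their groups do not overlap, while Ifng, Tbx21, Gzmb, Gzmk and Itgae, chosen after their values were seen, separate the 2 RARα-KO libraries from each other.

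Among effector transcription factors, Bhlhe40, a repressor that supports cytokine output in T cells, rose. It was at 18.6 and 17.2 FPKM in RARα-KO and at 3.81 and 7.74 FPKM in WT (1.54 ± 0.28, adjusted p = 0.016), and the call ended without either RARα-KO library or without WT replicate 1 (0.077 to 0.091). The list had 14 of 15 members higher, with a median of 0.32. Zeb2 was at 4.35 and 5.60 FPKM against 1.66 and 2.52 FPKM (0.96 ± 0.26, adjusted p = 0.10), and Irf8 at 101 and 199.9 FPKM against 52.6 and 74.7 FPKM (1.17 ± 0.34, adjusted p = 0.14). Eomes, at 28.0 and 60.6 FPKM against 27.2 and 28.1 FPKM in WT, was another gene that differed only in replicate 2.

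Interferon response genes were the T cell list with the largest median, 0.88, and 21 of its 29 members had RARα-KO libraries wholly above WT, but 1 was called. Oas1a, a sensor of double-stranded RNA, was at 10.1 and 18.3 FPKM in RARα-KO and at 4.12 and 3.23 FPKM in WT (1.66 ± 0.33, adjusted p = 0.023), a call that ended without RARα-KO replicate 2 (adjusted p = 0.16) or without WT replicate 1 (adjusted p = 0.080) or 2 (adjusted p = 0.15). RARα-KO replicate 2 exceeded replicate 1 in 26 of the 29 genes, whereas WT replicate 2 exceeded WT replicate 1 in 6 of them. Over all genes tested these shares were 45.8% and 50.4%, and 15.0% had RARα-KO libraries wholly above WT. Isg15, a ubiquitin-like modifier, was at 42.2 and 118 FPKM against 30.9 and 22.6 FPKM in WT. The medians relative to the WT mean were 0.53 for replicate 1 and 1.23 for replicate 2, so both libraries were above WT by unequal amounts.

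Growth programs split by library in both genotypes. For cell cycle genes the median log2 difference from the WT mean was -0.38 in RARα-KO replicate 1 and 0.45 in replicate 2. Ribosome biogenesis and MYC target genes behaved alike, at -0.21 and 0.63, with 0 of 16 members above both WT libraries in replicate 1 and all 16 in replicate 2. WT replicate 2 also exceeded WT replicate 1 in 23 of 26 cell cycle genes, in all 16 ribosome biogenesis genes and in all 20 cholesterol synthesis genes. Between genotypes the list medians were 0.03 for the cell cycle, 0.21 for glycolysis, 0.36 for cholesterol synthesis and 0.25 for ribosome biogenesis, with 0 genes called in these 4 lists. Leaving out RARα-KO replicate 2 turned the median to -0.32 for the cell cycle, -0.11 for glycolysis and -0.18 for ribosome biogenesis, and leaving out WT replicate 1 turned it to -0.39, -0.00 and -0.06. These settings set 1 replicate against both of the other genotype. The mean log2(FPKM + 1) of ribosome biogenesis genes was 6.75 and 7.60 in RARα-KO replicates 1 and 2 and 6.66 and 7.24 in WT. That of glycolysis genes was 5.71 and 6.25 in RARα-KO and 5.61 and 5.99 in WT. Each RARα-KO library was thus above the WT library of its number, though the labels do not tie the numbers. With RA this held only for replicate 2. Ribosome biogenesis was at 6.90 and 7.59 in RARα-KO + RA against 7.27 and 7.30 in WT + RA. Glycolysis was at 5.74 and 6.29 in RARα-KO + RA against 5.93 and 6.07 in WT + RA. Mki67, the proliferation marker Ki-67, was at 5.50 and 11.4 FPKM in RARα-KO and at 6.33 and 13.1 FPKM in WT.

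**Figure D4:**
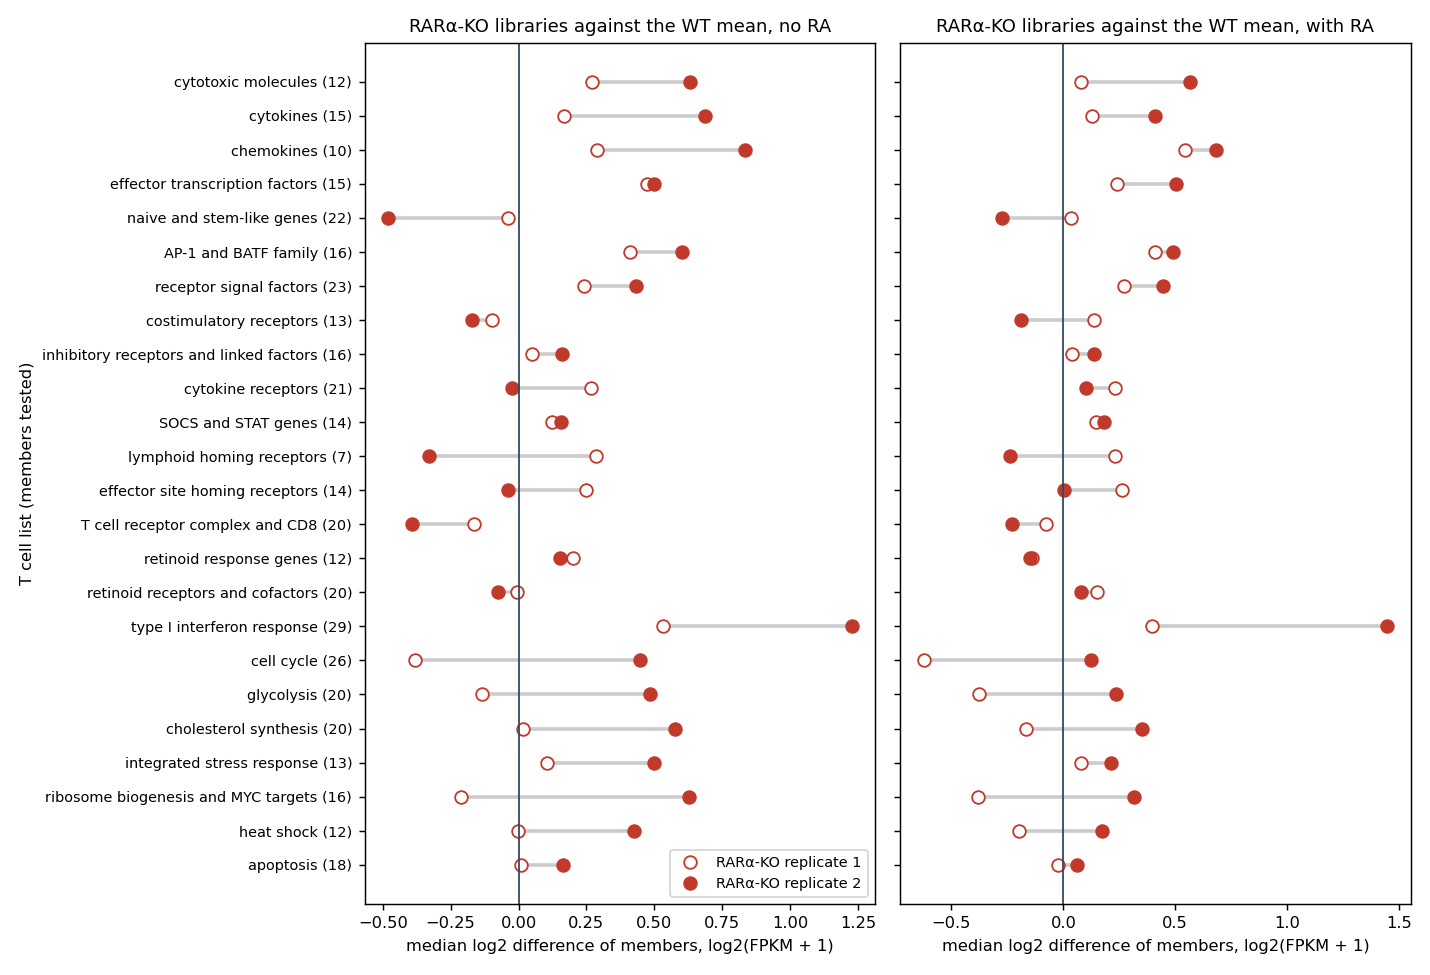
Median log2 difference, on the log2(FPKM + 1) scale, of each T cell list in RARα-KO replicate 1 (open) and replicate 2 (filled) from the mean of the WT libraries, without RA (left) and with RA (right). Both libraries were above WT for AP-1 genes (0.41 and 0.60) and interferon response genes (0.53 and 1.23), and on opposite sides of WT for the cell cycle (-0.38 and 0.45).

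On the side of naive and stem-like genes, 2 of 22 fell, 1 rose and the median was -0.24. Dapl1 (ENSMUSG00000026989, chromosome 2, 59484653 to 59505020), which marks naive and memory-precursor CD8 T cells, was at 71.7 and 83.3 FPKM in RARα-KO and at 219 and 183 FPKM in WT (-1.36 ± 0.13, adjusted p = 0.00051). The groups were far apart and each was tight. Nsg2, a vesicle protein also seen in naive T cells, was at 33.5 and 30.7 FPKM against 58.1 and 49.6 FPKM in WT (-0.73 ± 0.16, adjusted p = 0.043), and lost its call without any 1 of the 4 libraries (0.097 to 0.29). Cxcr5, a follicle homing receptor of B cells and some T cells, rose, at 18.1 and 22.5 FPKM against 7.18 and 3.56 FPKM in WT (1.79 ± 0.28, adjusted p = 0.0063), a call lost without RARα-KO replicate 2 (adjusted p = 0.054). The core naive factors did not pass: Tcf7 was at 429.6 and 318 FPKM against 507 and 371 FPKM in WT, with overlapping libraries, and Lef1 at 102 and 74.7 FPKM against 115 and 97.0 FPKM, also overlapping.

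The T cell receptor complex with CD8 was slightly lower. Of 20 genes, 19 had a lower mean, 12 had RARα-KO libraries wholly below WT (14.1% of all genes did), and the median was -0.24. Cd3e was at 288 and 224 FPKM in RARα-KO and at 339 and 306 FPKM in WT (-0.34 ± 0.14, adjusted p = 0.46). Cd8a was at 249 and 259 FPKM against 300.0 and 309 FPKM (-0.26 ± 0.11, adjusted p = 0.43). In the same libraries B cell markers were higher by a median of 2.31, and the part of other cells in these lower values was not tested. The gene called was Trbc1, the first constant region of the T cell receptor beta chain, at 350.3 and 280.1 FPKM against 609 and 489.7 FPKM in WT (-0.80 ± 0.18, adjusted p = 0.049), with the call lost without any 1 of the 4 libraries (0.065 to 0.33).

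The beta chain V segments showed a much stronger pattern, which was chosen for description after the calls were seen. T cells assemble each beta chain from 1 V segment of a row on chromosome 6. What set the segment levels of the genotypes apart was not tested. Each of the 9 tested segments from Trbv12-1 to Trbv17 fell, with log2 fold changes from -2.62 to -1.53, and they lie side by side between 41113567 and 41163556 with no other tested V segment among them. Their sum was 198 and 115 FPKM in RARα-KO and 782 and 588 FPKM in WT. With RA the sum was 164 and 121 FPKM in RARα-KO + RA and 632 and 529 FPKM in WT + RA, and 8 of the 9 fell there too.

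Of the 15 tested segments outside that row, 3 rose and 0 fell. Trbv24 rose the most, at 96.9 and 60.8 FPKM in RARα-KO and 3.52 and 6.22 FPKM in WT (3.77 ± 0.29, adjusted p = 0.00011). Trbv1 was at 162 and 120.0 FPKM against 57.8 and 46.4 FPKM, and Trbv2 at 33.6 and 31.8 FPKM against 20.2 and 20.2 FPKM, both called. Trbv19 was level, at 59.7 and 44.6 FPKM against 57.8 and 46.3 FPKM in WT. Those 15 segments summed to 962 and 684 FPKM in RARα-KO and to 592 and 523 FPKM in WT. Segments of 1 family are near copies, and reads can be shared among them, so single values are less certain than the sums.

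Called genes were unevenly placed along the genome in a wider sense. Of 12250 tested genes that could be placed and were not receptor segments, 50 were called down, and 13 of these lay on chromosome 7 and 12 on chromosome 9, or 1.39% and 1.80% of the genes tested there against 0.408% over all chromosomes. Over the autosomes and X, genes that rose were spread more evenly, from 1.34% on chromosome 2 to 3.21% on chromosome 1. Among 209 windows of 10 Mb with at least 20 tested genes, the median share called was 1.96%, and the highest shares were 23.3% at 20 to 30 Mb of chromosome 10 (7 of 30 genes), 16.7% at 20 to 30 Mb of chromosome 12 (4 of 24), 14.3% at 0 to 10 Mb of chromosome 6 (3 of 21) and 13.1% at 100 to 110 Mb of chromosome 7 (11 of 84).

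In the chromosome 7 window several Trim genes fell. Trim12a, of a family of antiviral ubiquitin ligases, was at 0 and 0.04 FPKM in RARα-KO and at 140.1 and 99.1 FPKM in WT, and Trim5 at 0.03 and 0.03 FPKM against 20.6 and 13.5 FPKM. Trim34a and Trim30d also fell there, while the neighbors Trim34b and Trim30c rose. Similarly, on chromosome 11 Slfn8 fell, at 8.47 and 11.5 FPKM against 46.9 and 35.6 FPKM in WT, and its neighbor Slfn9 rose, at 30.8 and 34.7 FPKM against 2.34 and 3.74 FPKM. The sum of Slfn8 and Slfn9 was 39.2 and 46.3 FPKM in RARα-KO and 49.2 and 39.3 FPKM in WT. These families hold near-identical copies, and reads may pass from 1 member to another. Whether they did so here was not tested, and no sum was made for the Trim genes.

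Nt5e (ENSMUSG00000032420, chromosome 9, 88327609 to 88372089), encoding CD73, which makes adenosine, is a T cell gene in such a region. It was at 5.94 and 2.59 FPKM in RARα-KO and at 18.6 and 18.1 FPKM in WT (-1.95 ± 0.28, adjusted p = 0.0046). Within 5 Mb of it, 5 of 31 tested genes were called: Nt5e and Cyb5r4 fell, and Bcl2a1d, Bcl2a1a and Ctsh rose. Its nearest tested neighbor, Snx14, was not called (-0.42, adjusted p = 0.66). Bcl2a1a and Bcl2a1d, near copies that encode a survival factor of the BCL2 family, were at 4.69 and 6.89 FPKM against 0.73 and 0.82 FPKM and at 29.3 and 46.1 FPKM against 18.3 and 20.9 FPKM. Around Rara itself calls were sparse, with 2 of 174 genes within 5 Mb (Xylt2 down and Atp6v0a1 up), and Ccr7, 216 kb away, was at 279 and 237 FPKM in RARα-KO and 305 and 307 FPKM in WT without a call.

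**Figure D5:**
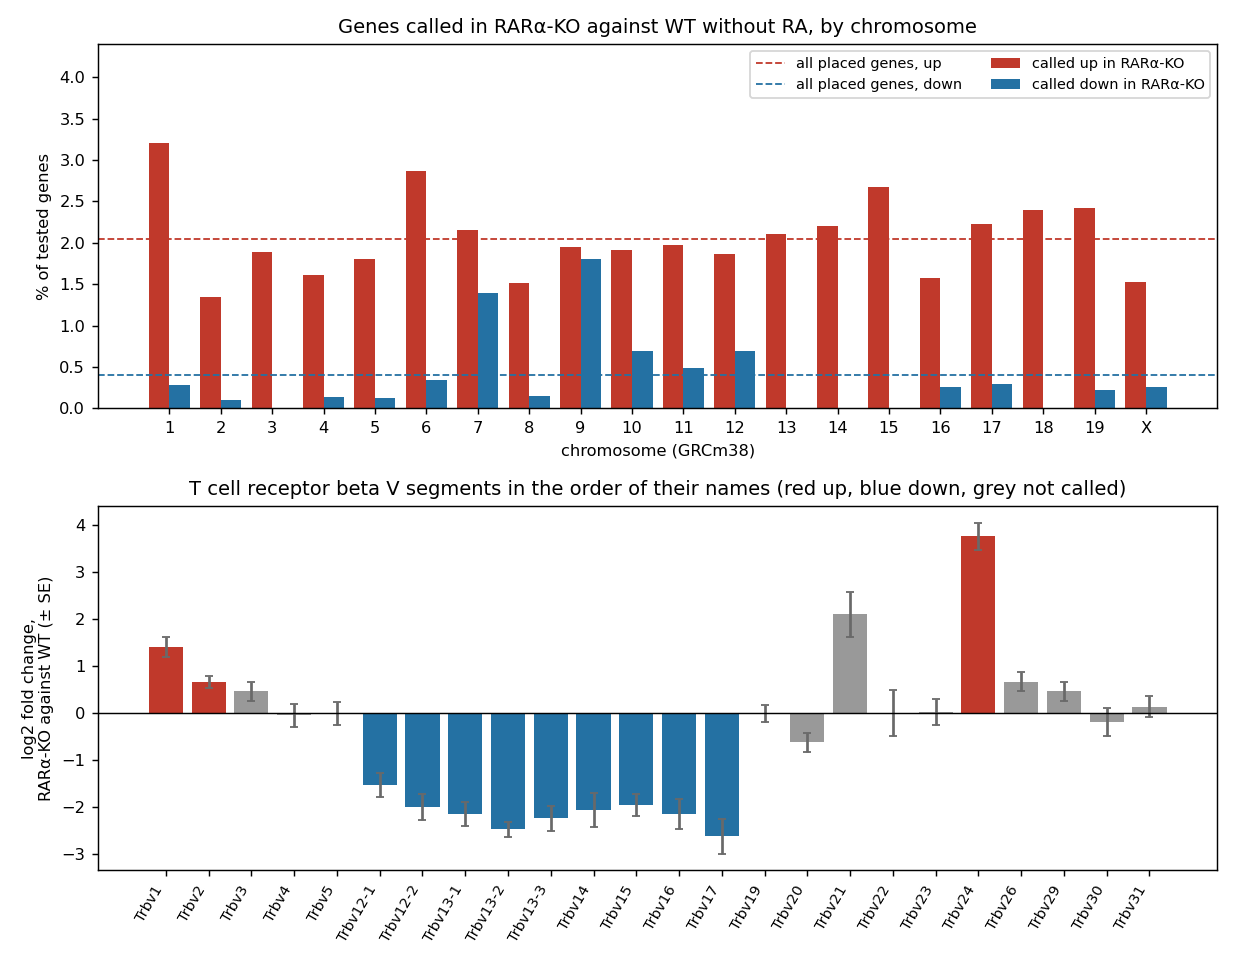
Top, share of tested genes called up (red) and called down (blue) in RARα-KO against WT on each chromosome, with dashed lines for all placed genes (2.04% up and 0.408% down). Bottom, log2 fold change ± SE of each tested T cell receptor beta V segment in the order of their names, with the 9 segments from Trbv12-1 to Trbv17 all lower and Trbv24 at 3.77.

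Retinoid genes gave no common direction without RA. The list of RA response genes had 12 tested members, of which 2 rose, 1 fell (Nt5e) and the median was 0.33. P2rx7, an ATP-gated channel, was at 5.38 and 1.89 FPKM in RARα-KO and at 0.07 and 0.26 FPKM in WT (1.89 ± 0.42, adjusted p = 0.042), and Asb2, a ubiquitin ligase subunit, at 1.32 and 2.08 FPKM against 0.27 and 0.16 FPKM (1.14 ± 0.22, adjusted p = 0.021). P2rx7 lost its call without RARα-KO replicate 1 (adjusted p = 0.20) or either WT library (0.14 to 0.23), and Asb2 without RARα-KO replicate 2 (adjusted p = 0.16) or either WT library (0.084 to 0.13). Dhrs3, which turns retinal back into retinol and is a sensitive RA target, was barely detected, at 1.22 and 0.25 FPKM in RARα-KO and at 0.31 and 0.24 FPKM in WT. In the cultures with RA, Dhrs3 stood at 9.41 and 5.20 FPKM in RARα-KO + RA and at 28.9 and 23.1 FPKM in WT + RA, where it fell (adjusted p = 0.0097). Of 20 retinoid receptors and cofactors 0 were called. Rarg, a related receptor, was at 20.0 and 12.2 FPKM against 24.1 and 18.2 FPKM in WT, and Rarb and Rxrg were at 0 in all 4 libraries.

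Inhibitory receptors and homing receptors changed little. Entpd1 (CD39), which works upstream of CD73 in making adenosine, was called up at 4.19 and 1.96 FPKM against 0.72 and 0.73 FPKM in WT (1.18 ± 0.26, adjusted p = 0.038), and lost the call without RARα-KO replicate 1 (adjusted p = 0.18) or either WT library (0.16 to 0.18). Pdcd1 (PD-1) was at 9.83 and 14.1 FPKM against 6.68 and 13.2 FPKM, and Lag3 at 9.32 and 15.7 FPKM against 16.2 and 11.4 FPKM, both overlapping. Among effector site homing receptors 0 of 14 were called. The chemokine list differed more, with 9 of 10 tested members higher and a median of 0.85. In 4 of the 10 the RARα-KO libraries lay wholly above WT and in 1 wholly below (15.0% and 14.1% of all genes). Ccl22 was at 5.08 and 7.39 FPKM in RARα-KO against 0.96 and 0.56 FPKM in WT, without a call. Cxcl16 was the called chemokine, at 3.14 and 2.21 FPKM against 0.58 and 0.31 FPKM in WT (1.34 ± 0.22, adjusted p = 0.0091), a call lost without RARα-KO replicate 1 (adjusted p = 0.074) or WT replicate 2 (adjusted p = 0.081).

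Outside the lists, several genes were tight within each genotype. Cep85, a centrosome protein, was at 76.0 and 92.2 FPKM in RARα-KO and at 14.4 and 17.2 FPKM in WT, and Ly6a (Sca-1), a surface protein induced on activated T cells, was at 333 and 366 FPKM against 137 and 143 FPKM. Casp1, an inflammatory caspase, was at 9.45 and 9.93 FPKM against 1.85 and 1.87 FPKM, and its relative Casp4 at 6.99 and 12.4 FPKM against 1.61 and 1.68 FPKM. Cep85, Ly6a and Casp1 were nearly level within each genotype and did not overlap between them. Which cells in the cultures gave these values was not tested. Many of the largest increases, such as Fcmr, Ly86, Ly6d and Rasgrp3, are genes that B cells express. Fcmr, the IgM receptor, was at 62.4 and 73.5 FPKM in RARα-KO and at 14.9 and 5.60 FPKM in WT.

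Decreases of single genes were as sharp. Slc15a2, a peptide transporter, was at 8.27 and 5.21 FPKM in RARα-KO and at 53.7 and 35.5 FPKM in WT (-2.56 ± 0.43, adjusted p = 0.0096), though without RARα-KO replicate 2 (adjusted p = 0.077) or WT replicate 1 (adjusted p = 0.081) it was not called. Rab4a, a GTPase of endosome recycling, was at 2.82 and 1.90 FPKM against 15.7 and 11.8 FPKM (-2.14 ± 0.20, adjusted p = 0.00043). Map7, a microtubule-binding protein in the chromosome 10 window, was at 0.59 and 0.96 FPKM against 13.1 and 11.2 FPKM (-2.90 ± 0.17, adjusted p = 2.1e-05). None of these 3 genes had overlapping groups.

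The comparison with RA, made on other libraries of the same genotypes, gave 504 calls (3.76% of genes tested), 434 up and 70 down, or 3.24% and 0.523%. Of the 441 genes called without RA, 374 (84.8%) were called in the same direction with RA, which is 74.2% of the calls with RA, and 0 in the opposite direction. Same-numbered cultures of a genotype shared their deviations between the RA conditions, so the comparisons are not independent of each other. Testing the difference of the genotype effect without and with RA called 0 genes (limma, smallest adjusted p = 0.14), with 184 genes (1.37%) at an unadjusted p under 0.05. Jun, at 0.72 without RA, was at 0.40 with RA (adjusted p = 0.093), and Tnfrsf9 was called in both, at 1.96 and 1.69.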

How the data were processed

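RNA sequencing measured gene expression in activated mouse CD8 T cells. Per the submitters' processing notes, STAR 2.7.8a, RSEM 1.3.3 and GRCm38 were used. The authors deposited 1 table of FPKM per gene and library, with no counts, so absolute depth is unknown and no counting interval is given. The labels name both a total RNA kit and poly-A enrichment, which may affect pseudogene, noncoding and mitochondrial values.

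Genes at 1 FPKM or more in at least 2 of the 12 libraries were fitted as log2(FPKM + 1) in limma 3.58.1 (R 4.3.3), with 6 group means, a mean-variance trend, 6 residual and 3.39 prior degrees of freedom. Two-sided moderated tests were adjusted by Benjamini-Hochberg over all 13396 genes. The fit was also run on simulated data with independent noise for each gene and library. Those data lack the deviations that libraries shared here, so the run does not show how many calls are false. The contrasts were RARα-KO against WT without RA, the same with RA, and their difference. Lists were described by counts and medians only. Positions came from RefSeq (GRCm38.p6) for 12573 tested genes.

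The genes described, the gene lists and most choices were made with earlier results of these data known. The naming rule took Rara and Cre, the 15 largest increases and 15 largest decreases outside segments, copies and other-cell lists (genotypes that did not overlap and averaged 5 FPKM or more in 1 of them), and the members of each list with the smallest adjusted p. Gzmk, Itgae, Ifng and the other genes that split the RARα-KO libraries, the genes of the chromosome windows and the beta chain segments were chosen after their values were seen, as was setting each RARα-KO library against the WT mean. The same holds for Cep85, Ly6a, Casp1 and Casp4. Alternatives changed the pseudocount (0.5 or 0.1), the filter (none or 5 FPKM), the scaling (TPM or median ratio), the weights, the block, the libraries fitted and the genes kept, and left out each library. Promoter motifs were not analysed here. Tables and plots used Python 3.11.15, pandas 2.3.3, numpy 2.4.6 and matplotlib 3.10.9.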

Additional observations from a re-analysis of the deposited data

How the results depend on the processing

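Against 441 genes called without RA (372 up and 69 down), fitting only the libraries compared called 80 (65 up and 15 down, 76 of them among the 441), and leaving out receptor segments and other-cell genes called 232 (186 up). Leaving out 1 library gave 247 (without WT replicate 2) to 302 calls, with 183 to 257 up and 45 (without WT replicate 1) to 64 down, and 259 without RARα-KO replicate 2. Of the 441 calls, 192 (154 up and 38 down) were kept without each of the 4 libraries. With RA, against 504 calls (434 up and 70 down), only the libraries compared gave 320 (273 up), leaving out segments and other-cell genes 291 (243 up), the filter at 5 FPKM 274 up, and leaving out 1 library 246 to 340 (197 to 289 up, 43 to 68 down). The difference of the effects had 0 calls except 16 with no filter. Pseudocount, scaling, weights and filters otherwise kept the count without RA within 1.5 times, at 303 to 449. The cause of these shifts was not tested, beyond the fewer libraries or genes that each setting holds. Over the named genes and alternatives, 1960 values kept their direction and side of the threshold, 209 lost the call, 25 gained it and 0 reversed.

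The labels give the groups the same replicate numbers but do not tie a number to a shared mouse or day. Deviations of same-numbered RARα-KO and WT libraries correlated at 0.452 without RA and at 0.135 with RA. With the replicate number as a block, 661 genes were called without RA (502 up and 159 down), the 441 among them, and 730 with RA (152 down). Depth per library is unknown, so values near 1 FPKM have no counting error, and 2 libraries a group limit every statement on spread.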

Other observations

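Several near-identical copies ran in opposite directions between the genotypes. The mitochondrial gene mt-Nd3 was at 1310 and 1105 FPKM in RARα-KO and at 27.7 and 37.1 FPKM in WT, while its copy Gm28438 was at 13.7 and 31.5 FPKM in RARα-KO and at 1110 and 1249 FPKM in WT. Their sum was 1324 and 1136 FPKM in RARα-KO and 1137 and 1286 FPKM in WT, so the libraries overlapped once both were added. Rps7 and Rps7-ps3 summed to 2204 and 1990 FPKM in RARα-KO and to 1937 and 1710 FPKM in WT. Rpl29, a ribosomal protein gene, was at 31.2 and 45.2 FPKM in RARα-KO against 982 and 1115 FPKM in WT. The predicted models Gm6969 and Gm8210 ran the other way, with Gm6969 at 464 and 322 FPKM in RARα-KO against 0 and 0.3 FPKM in WT, and Gm8210 at 264 and 262 FPKM in RARα-KO against 0.18 and 0 FPKM in WT. Levels of single copies are uncertain because reads can be shared, and the sums are the safer values.

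Col6a4, a collagen chain, stood at 6.07 and 4.86 FPKM in RARα-KO and was listed at 0 in both WT libraries. The erythroid and platelet list, of which 5 members were tested and 0 called, summed to 174 and 11.6 FPKM in RARα-KO and to 209 and 17.7 FPKM in WT. Its higher library was replicate 1 in every group of the series, with RA and in BATF-KO too. The summed cell cycle and ribosome biogenesis lists ran in reverse, with replicate 2 higher in every group.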
